A study of Rattus norvegicus with 24 samples.

Results

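Ion channel genes other than the main repolarising potassium subunits were followed in ventricles of rats made diabetic with streptozotocin. The set took probe sets with a single annotated symbol that begins with Kcn, Cacn, Clcn or Hcn, or with Scn followed by a digit, and left out Kcnd2, Kcnd3, Kcna5, Kcnq1 and Kcne1. A gene with several probe sets was represented by the one with the highest mean log2 signal over all 24 arrays. This gave 78 genes of the 4736 genes that had a probe set with a single symbol. By ion they were 49 potassium, 14 calcium, 10 sodium and 5 chloride channel genes, and 0 genes were Hcn pacemaker channels. The rule uses symbols and mean signal and no difference between groups, and it was written with earlier results of these data known.

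In a heart muscle cell, sodium channels carry the fast upstroke of the action potential, L-type calcium channels admit the calcium that starts contraction, and potassium channels repolarise the membrane and hold its resting level. Pore subunits form the conducting channel, and auxiliary subunits set its trafficking and gating. Many members of these families are known mainly from nerve, kidney, skeletal muscle or blood vessels, so a low level in ventricle is common for them.

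The animals were male Wistar rats that weighed 150 g when injected, and the labels name no other genetic change. Diabetic rats had received streptozotocin at 65 mg/kg, which kills the insulin-secreting cells of the pancreas and so models insulin deficiency, and controls had received its citrate buffer vehicle. Ventricles were frozen 3, 28 or 42 days later, with 4 rats in each of 6 groups and 1 Affymetrix oligonucleotide array of rat genes per rat, and the labels give no age beyond these days. Per the series text the days stand for rats without cardiac symptoms, with diastolic dysfunction, and with diastolic and systolic dysfunction. Blood glucose lay between 103 and 156 mg/dL in controls and between 500 and 769 mg/dL in diabetic rats. Diabetic rats weighed 205 to 265 g at day 28 but 112 to 126 g at day 42, when controls weighed 413 to 472 g.

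Signals are MAS5 intensities on a linear scale, and each array's trimmed mean had been set to about 1500 units, so a value is relative to the rest of its array. Markers of heart muscle were high throughout, with group means of Myh6, the cardiac myosin heavy chain, between 61441 and 78351 units. Correlations between arrays of a group ran from 0.927 to 0.978. The least alike was diabetic day 3 replicate 1, which averaged 0.936 with its group and was the highest of its 4 arrays for 58 of the 78 channel genes. All day 42 arrays shared 1 scan day and 1 operator that no other array had, and 1 chip lot that control day 28 replicate 1 and diabetic day 28 replicate 2 also had, so time and array handling cannot be told apart. At day 3 fluidics station 2 held 1 control and all 4 diabetic arrays, and at day 28 all 4 controls and 1 diabetic array. At these days station and diabetes can therefore be told apart only in part. The 3 prime to 5 prime signal ratio of hexokinase, a sign of RNA integrity, was 2.60 to 5.07 at day 42 and 1.43 to 2.77 at the other days. The same ratio of beta-actin was 1.02 to 1.39 at day 42 and 1.04 to 1.87 at the other days. For GAPDH it was 1.09 to 1.23 at day 42 and 0.97 to 1.13 at the other days.

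Most channel genes were dim on this array. Signals under the pooled 10th percentile of 30.5 units were raised to it, which puts the floor at 4.93 on the log2 scale. Near the floor, meaning a mean less than 1 log2 unit above it or under 61 units, were 15 of the 78 genes (19.2%), against 12.8% of all genes. These were 11 potassium channel genes (Kcna2, Kcna3, Kcnf1, Kcnh1, Kcnj13, Kcnj2, Kcnj6, Kcnj9, Kcnn3, Kcns1 and Kcnt1), the sodium channel genes Scn10a and Scn2b, the skeletal muscle calcium channel gene Cacna1s and the chloride transporter gene Clcn5. By stricter and looser definitions, 7 genes sat at the floor on 12 or more arrays and 25 had a mean signal under the 25th percentile of 93.6 units. Kcnj2, whose product carries much of the resting potassium current of ventricle, was at the floor on 21 of 24 arrays with this probe set, which is shared between sequences. By the suffix of their names 19 of the 78 probe sets match several sequences, which may be transcripts of the same gene or of others. Among tested genes these are Cacna1a, Cacna1b, Kcna4, Kcnh2, Kcnh8, Kcnn1, Kcnq3 and Kcns3. On 48 genes no array reached the floor.

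A gene was tested where its mean reached the 40th percentile of all probe sets, 208 units, which 37 of the 78 genes (47.4%) did, against 66.3% of all genes. Of these 37, 20 were potassium, 10 calcium, 5 sodium and 2 chloride channel genes. The calcium class had 10 of its 14 genes tested, while 29 of 49 potassium genes lay below the filter. Within the calcium class 5 of 6 auxiliary and 5 of 8 pore subunit genes were tested. The highest means in their classes belonged to Kcnj11, Cacna1c, Clcn3 and Scn7a. Their lowest and highest signals over 24 arrays were 2887 and 5422 units for Kcnj11, 2864 and 5127 for Cacna1c, 1818 and 3713 for Clcn3, and 737.5 and 3965 for Scn7a.

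**Figure D1:**
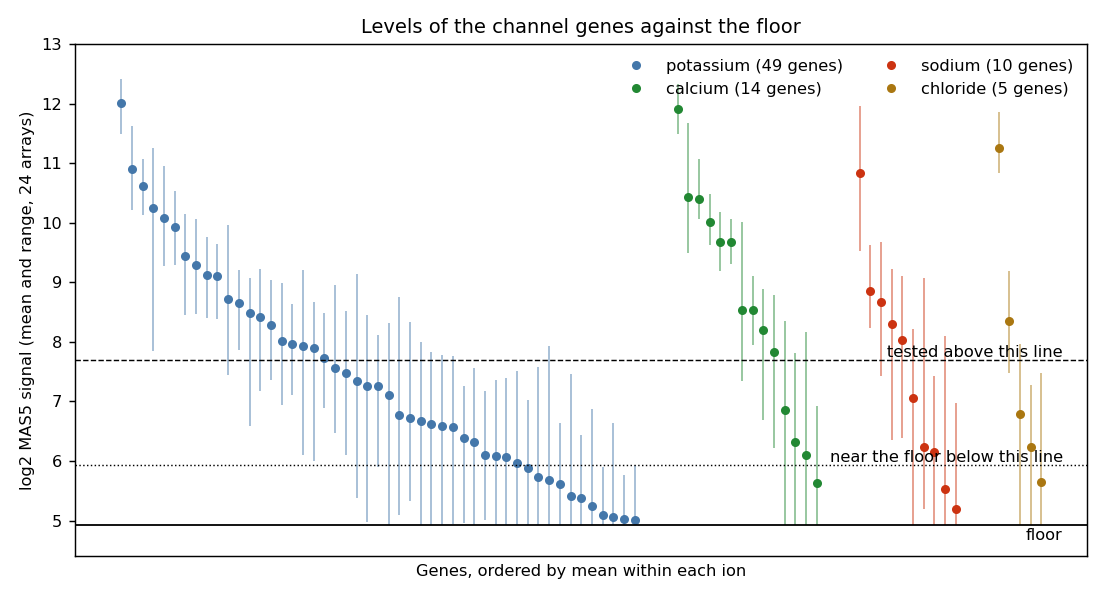
Mean log2 MAS5 signal of each of the 78 channel genes over 24 arrays (points) with the lowest and highest array (lines, values under the floor drawn at it), ordered within each ion. Points under the dotted line are the 15 genes near the floor, and points above the dashed line are the 37 tested genes.

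Few channel genes differed between diabetic and control ventricles. With limma (a linear model over all 24 arrays, two-sided moderated tests, Benjamini-Hochberg adjustment over 5244 probe sets, threshold adjusted p under 0.05), 0 of 37 tested genes passed at day 3 and 0 at day 28, and 2 passed at day 42, Scn1a and Clcn3, both higher in diabetic rats. The share of all tested probe sets that passed was 0.934% at day 3, 2.1% at day 28 and 11.4% at day 42. At an unadjusted p under 0.05 the counts among the channel genes were 0, 3 and 4. The median log2 difference of the 37 genes was -0.02, -0.13 and -0.03 at days 3, 28 and 42, beside -0.04, -0.06 and -0.03 over all tested probe sets. Leaving out 1 array at a time gave 0 to 1 at day 28, where Scn3a passed without control day 28 replicate 2, and 1 to 2 at day 42. The day 42 count was 1 without control day 42 replicate 1, control day 42 replicate 4, diabetic day 42 replicate 2 or diabetic day 42 replicate 3. Of the 41 genes below the filter, 0 passed at any day in a fit without the filter. These are whole ventricles, where fewer cells of a type and less RNA per cell cannot be told apart.

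The groups were also compared by whether their values overlapped. All diabetic values stood on the same side of all control values for 1 of 37 tested genes at day 3, for 3 at day 28 and for 3 at day 42. The share of all tested probe sets with that property was 7.19% at day 3, 6.52% at day 28 and 19.8% at day 42. The gene at day 3 was Kcnj15, those at day 28 were Cacnb1, Kcnh8 and Kcnj5, and those at day 42 were Scn1a, Clcn3 and Kcnj11.

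**Figure D2:**
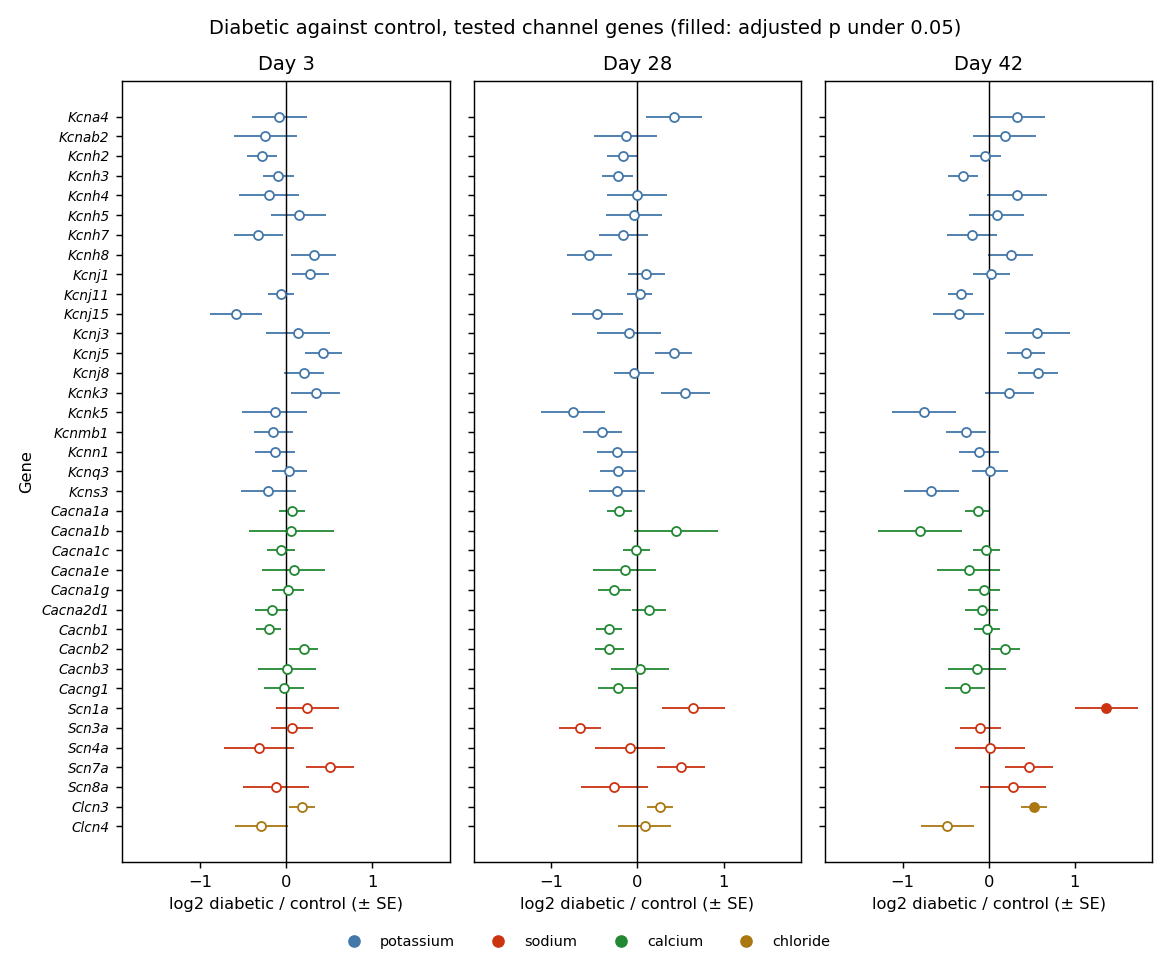
Log2 difference, diabetic minus control, of the 37 tested channel genes at each day, with its standard error from limma (horizontal lines) and 4 rats per group. Filled points passed the threshold: 0 at day 3, 0 at day 28, and Scn1a and Clcn3 at day 42.

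Among the sodium channel genes, Scn1a, whose pore subunit is best known from neurons, was higher in diabetic than in control ventricles at day 42. Its control signals were 239.8, 257, 172.3 and 215 units, and the diabetic signals were 391.4, 761.3, 508.2 and 661.5. Every diabetic array lay above every control array, and the 4 controls were the most tightly grouped of all 6 groups. The log2 difference was 1.36 ± 0.37 (SE, n = 4 per group, limma adjusted p = 0.0136). It was 1.40 among the 5 arrays of fluidics station 1 and 1.17 among the 3 of station 2. Without diabetic day 42 replicate 2, which had the highest value, the difference was no longer past the threshold (adjusted p = 0.0552).

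At the earlier days Scn1a varied widely. Control signals were 532.6, 341.1, 299 and 758.9 at day 3 and 185.1, 472.7, 454.7 and 227.4 at day 28. Diabetic signals were 456, 815, 726.5 and 301.8 at day 3 and 279.5, 591.7, 671.6 and 490.9 at day 28. The groups overlapped at both days, and the differences of 0.25 and 0.65 did not pass (limma adjusted p = 0.923 and 0.522). Of the 11 neuron markers listed, 8 were on the array, 3 of these were near the floor (Syt1, Nefm and Dbh), and 0 of 3 tested passed at any day or between days 42 and 3. Their summed signal at day 42 was 1457 to 2104 units in controls and 1616 to 1785 in diabetic rats, so the groups overlapped, and the part of neurons in the Scn1a value was not tested.

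The other 4 tested sodium channel genes did not pass at any day. Scn3a, a second mainly neuronal pore gene, had the lowest unadjusted p of the class at day 28. Its signals there were 696.7, 364.9, 787.2 and 632 in controls and 420.8, 369.7, 425 and 300.4 in diabetic rats, a log2 difference of -0.67 ± 0.24 (limma adjusted p = 0.186). Control replicate 2 fell inside the diabetic range, and without it the difference passed. Scn7a, which codes for a sodium-sensing channel relative found in glia and heart, averaged higher in diabetic rats by 0.51, 0.51 and 0.47 at days 3, 28 and 42, with adjusted p of 0.589, 0.495 and 0.348. Its dimmer probe set, also above the filter, had 0.10, 0.78 and 0.19 and did not pass (limma adjusted p = 0.975, 0.156 and 0.768). Scn4a, the skeletal muscle channel gene, and Scn8a, a neuronal one, had differences between -0.31 and 0.28.

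Clcn3 was the chloride gene that passed, higher in diabetic rats at day 42. Its product is a chloride and proton exchanger of endosomes and related vesicles. At day 42 the control signals were 2067.2, 2154.6, 2345 and 1992.1 units, and the diabetic signals were 2612.8, 3044.5, 3713 and 3065.4. The groups did not overlap, and the lowest diabetic array stood above the highest control. The difference was 0.53 ± 0.15 on the log2 scale (n = 4 per group, limma adjusted p = 0.0206), and it was 0.41 among arrays of station 1 and 0.65 among those of station 2. It missed the threshold without control day 42 replicate 1, control day 42 replicate 4 or diabetic day 42 replicate 3, with adjusted p of at most 0.0808.

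The same gene averaged higher in diabetic rats at the earlier days without passing. At day 28 the diabetic arrays were close together, at 2450.2, 2599.8, 2631.1 and 2475.2, and the controls read 1980.8, 1818.4, 2140.9 and 2567.2, so that 1 control fell among them (difference 0.27, limma adjusted p = 0.522). At day 3 diabetic replicate 3, at 1828.5, was below all 4 controls while the other 3 were above them (difference 0.19, adjusted p = 0.811). Clcn4, a close relative of Clcn3, had a difference of -0.48 ± 0.31 at day 42 (adjusted p = 0.402). Clcn1, Clcn5 and Clcn7 lay below the filter.

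The promoter of Clcn3 is shown because it was the chloride gene that passed. RefSeq places the 250 bases before its annotated start at chr16:34137754-34138003 of the GRCr8 build, on the plus strand, with 64.4% G and C and 28 CpG pairs. In capitals is 1 match to the cyclic AMP response element, TGACGTCA, 63 to 56 bases before the start.
Clcn3: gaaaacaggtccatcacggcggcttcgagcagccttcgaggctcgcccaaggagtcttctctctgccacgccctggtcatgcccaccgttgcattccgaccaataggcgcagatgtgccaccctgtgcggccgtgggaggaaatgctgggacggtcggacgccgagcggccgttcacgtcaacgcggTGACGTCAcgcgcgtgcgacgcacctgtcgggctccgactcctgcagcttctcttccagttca
That element was searched after the sequence had been seen. It occurred in 1.59% of 33469 RefSeq promoters of this length and in 1.47% of the 68 channel genes with an entry. The Clcn3 window held 0 matches to the GC box, GGGCGG, or to the TATA box, TATAAA, which occurred in 30.5% and 12.9% of all promoters and in 47.1% and 7.35% of those of the channel genes. Both strands were searched, and a match is a description of the letters, not a shown binding site.

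**Figure D3:**
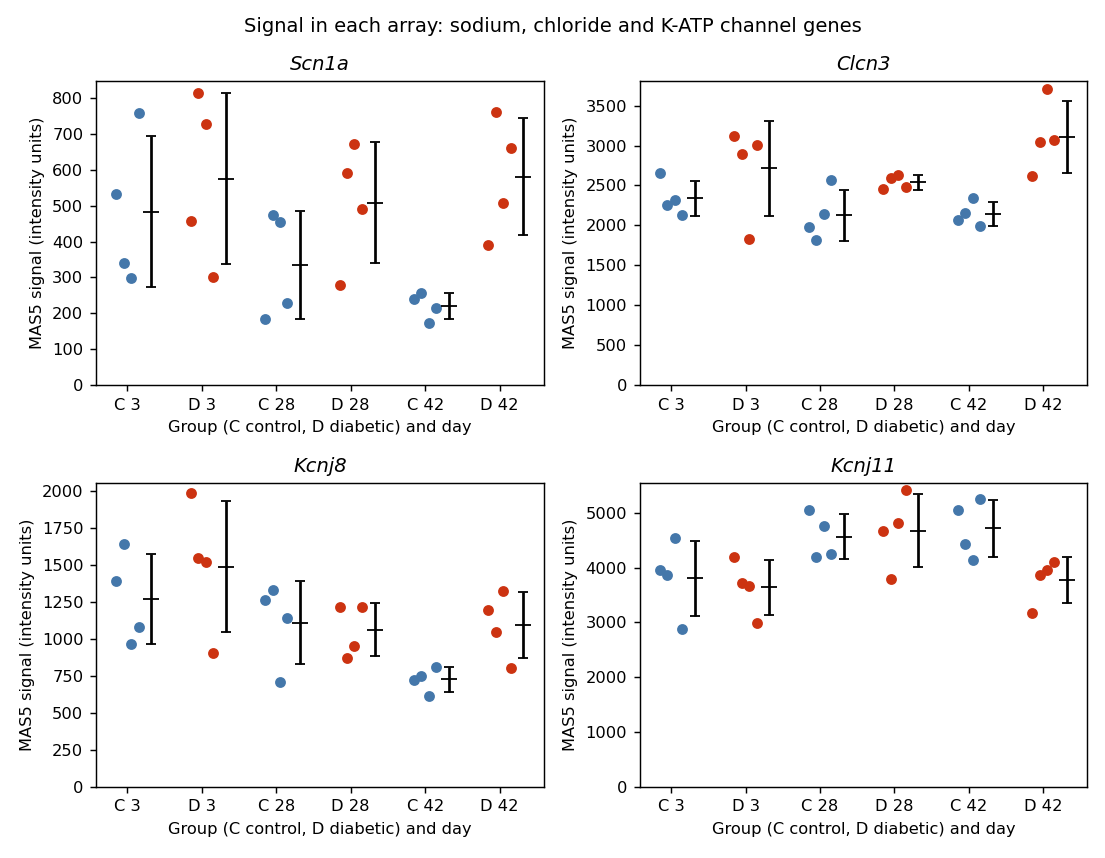
MAS5 signal of Scn1a, Clcn3, Kcnj8 and Kcnj11 on each array (points, 4 per group), with the group mean and SD beside them, for control (C) and diabetic (D) rats at days 3, 28 and 42. At day 42 all diabetic arrays are above the controls for Scn1a and Clcn3 and below them for Kcnj11, and for Kcnj8 1 diabetic array lies within the control range.

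Other tissue markers differed at day 42 as well. Of 6 fibroblast markers 5 were lower in diabetic rats, with summed signals of 84671 to 92395 units in controls and 38207 to 50336 in diabetic rats. Adipocyte markers passed as higher for 3 of 3 tested, with sums of 8749 to 10308 and 13262 to 20336, and 0 of 6 heart muscle markers passed. The part of these markers in the day 42 values of Scn1a and Clcn3 was not tested.

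Among voltage-gated potassium channel genes, 0 of 8 tested pore subunit genes passed between diabetic and control rats at any day. Kcnh2, which codes for the pore of the rapid delayed rectifier, had differences of -0.28 ± 0.18, -0.17 ± 0.18 and -0.04 ± 0.18 at days 3, 28 and 42. Group means of this probe set lay between 1378 and 1770 units. A dimmer Kcnh2 probe set, also above the filter, had differences of -0.24, 0.05 and -0.91. It did not pass at any day (limma adjusted p = 0.188 at day 42). Kcnh8, a relative from the same family, was lower in diabetic rats at day 28, with 202.6, 230.2, 213.5 and 208.8 against 352, 231.4, 313 and 382.1 units. The ranges nearly met, with a control at 231.4 and a diabetic array at 230.2, and the difference of -0.56 ± 0.26 did not pass (limma adjusted p = 0.382).

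Kcna4, the pore gene of the slow transient outward current, gave different answers from its 2 probe sets. The one with the higher mean read 265.1, 408.9, 393.2 and 532.6 units in controls and 486.9, 453.1, 457.2 and 560.9 in diabetic rats at day 42, a difference of 0.33 ± 0.32 with overlapping groups (limma adjusted p = 0.642). The dimmer one, which was below the filter, read 130.1, 6.7, 94.2 and 119 in controls and 294.4, 285.6, 252.8 and 289.7 in diabetic rats. These groups were clearly apart, and in the fit without the filter the difference was 1.78 ± 0.37 (adjusted p = 0.00234), between 1.30 and 2.0 when 1 array at a time was left out. The control value of 6.7 was raised to the floor, and the 1.30 came without that array.

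The dimmer Kcna4 probe set was also apart at the earlier days. Controls lay between 100.7 and 119.6 units at day 3 and between 96.1 and 138.6 at day 28. Diabetic arrays lay between 131.8 and 281 at day 3 and between 177.4 and 327.1 at day 28, above all controls of the same day. The differences of 0.95 ± 0.37 and 1.04 ± 0.37 did not pass there (limma adjusted p = 0.435 and 0.255). The brighter one had differences of -0.08, 0.43 and 0.33 at days 3, 28 and 42, so at days 28 and 42 both were higher in diabetic rats and differed in size and in the call. The dimmer one was singled out after its values were seen.

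Of 15 inward rectifier genes 6 were tested, and 0 of these passed at any day. Kcnj11, the pore gene of the ATP-sensitive channel of heart muscle, was lower in diabetic rats at day 42. Its controls read 5043.5, 4425.1, 4138.6 and 5253.3 units and its diabetic arrays 3167.3, 3857.8, 3952.3 and 4109.3. The groups did not overlap, though the closest arrays read 4138.6 and 4109.3, and the difference of -0.32 ± 0.15 did not pass (limma adjusted p = 0.179). A second Kcnj11 probe set, which was dimmer, did pass at day 42, with a difference of -0.53 ± 0.16 (adjusted p = 0.0328). That call held in 2 of 8 fits that left out 1 array each, with an adjusted p of at most 0.126.

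Kcnj8, the pore gene of the ATP-sensitive channel of vascular muscle, pericytes and other cells, had a difference of the opposite sign. At day 42 its controls were 722, 751, 616.4 and 813.1 and its diabetic arrays 1195.7, 1045.2, 1323.3 and 805. Of the 4 diabetic arrays 3 were above all controls, and the log2 difference of 0.57 ± 0.23 did not pass (limma adjusted p = 0.124). At days 3 and 28 its differences were 0.21 and -0.04. Of 4 smooth muscle markers 0 passed at day 42, with summed signals of 4265 to 12829 in controls and 5704 to 10849 in diabetic rats. Endothelial markers summed to 2644 to 3211 in controls and 3907 to 5100 in diabetic rats at day 42, with 1 of 3 past the threshold and higher. That 1 was Kdr, whose mean was 530 in controls and 1787 in diabetic rats. Pecam1 and Vwf had differences of 0.25 and -0.02 (limma adjusted p = 0.523 and 0.994). The part of these markers in the Kcnj8 value was not tested.

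Kcnj5 and Kcnj3 code for the 2 subunits of the muscarinic potassium channel. Kcnj5 averaged higher in diabetic rats by nearly the same amount at each day, 0.43 ± 0.22, 0.42 ± 0.22 and 0.43 ± 0.22, and did not pass at any (limma adjusted p = 0.505, 0.445 and 0.235). At day 28 its controls were 419.7, 498.4, 576.8 and 470.4 and its diabetic arrays 627.5, 628.3, 724.4 and 640.3, with all diabetic arrays above the controls. At days 3 and 42 the groups overlapped. Kcnj3 had differences of 0.14 ± 0.37, -0.10 ± 0.37 and 0.57 ± 0.37. Markers of atrial muscle, where this channel is most used, had sums of 8265 to 15523 units in controls and 36488 to 49852 in diabetic rats at day 42. That sum is mostly the atrial natriuretic peptide gene Nppa, whose mean was 7661 in controls and 36188 in diabetic rats and which was the 1 of 3 tested that passed there. Myl7 and Myl4, atrial myosin light chain genes, had differences of 0.30 and -0.02 (limma adjusted p = 0.935 and 0.996). The part of Nppa in the Kcnj5 values was not tested.

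Kcnj12, a second gene of the resting inward rectifier current, was below the filter but never at the floor. Its day 3 controls were 267.6, 349.1, 292.7 and 269.9 and its diabetic arrays 88.2, 207.4, 178.4 and 207.1 units. These groups did not overlap, and at days 28 and 42 a diabetic array reached into the control range. In the fit without the filter the differences were -0.86 ± 0.42, -1.0 ± 0.42 and -0.92 ± 0.42 at days 3, 28 and 42, of like size at each day, and did not pass (limma adjusted p = 0.639, 0.434 and 0.270). Kcnj15, which is best known from kidney, was lower in all 4 diabetic arrays at day 3, at 241.8, 225, 334.9 and 329.1 against 410.3, 354.5, 547 and 376.9. That difference of -0.58 ± 0.30 did not pass (limma adjusted p = 0.535), and those of days 28 and 42 were -0.46 and -0.35 with overlapping groups.

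Tandem-pore channels carry background potassium current. Kcnk3, the acid-sensitive one found in heart, had differences of 0.35, 0.56 and 0.24 at days 3, 28 and 42, and the lowest adjusted p was 0.445. The level of this probe set stood further apart between days than between groups. The 8 arrays of day 28 lay between 229.4 and 902.6 units, below all 16 arrays of days 3 and 42, which read 1142.7 or more. A comparison of day 28 with the other days was not tested. No day 28 array shared a scan day with another time, so time and handling cannot be told apart here. A dimmer Kcnk3 probe set, also above the filter, differed by -1.51 in controls and -1.04 in diabetic rats between day 42 and day 3. It did not pass (limma adjusted p = 0.101 and 0.256). Control means of the brighter one were 1552 units at day 3 and 1562 at day 42. Kcnk5, a relative, had a difference of -0.75 ± 0.37 at both day 28 and day 42 (limma adjusted p = 0.436 and 0.236). Kcns3, a silent subunit that modifies other channels, had a difference of -0.66 ± 0.32 at day 42 (adjusted p = 0.222).

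The 10 tested calcium channel genes gave 0 calls between diabetic and control rats at any day. At day 42, 9 of 10 differences were below 0, with a median of -0.11, and with quantile normalization 7 of 10 were. Of all 5244 tested probe sets 2797 were below 0 there, with a median of -0.03. At an unadjusted p under 0.05 (limma) the count among the 10 was 0. Cacna1c, the pore gene of the cardiac L-type channel, averaged 4164 ± 734 units (SD, n = 4) in controls and 4088 ± 715 in diabetic rats at day 42, and its differences were -0.06 ± 0.16, -0.01 ± 0.16 and -0.03 ± 0.16 at the 3 days. These are of its brightest probe set. A dimmer one had differences of -0.76, -0.24 and 1.14 ± 0.43 (limma adjusted p = 0.0939 at day 42), and another had -0.42, 0.32 and 0.18, with 0 calls. Cacnb2, its main cardiac beta subunit gene, had differences of 0.20, -0.33 and 0.19, and Cacna1g, a T-type pore gene, had 0.03, -0.27 and -0.06. Cacnb1, the beta subunit gene best known from skeletal muscle, was lower in all 4 diabetic arrays at day 28. Its controls there were 1056.4, 773.4, 840 and 879.6 and its diabetic arrays 669.5, 716.6, 746.6 and 670.3. The closest arrays read 773.4 and 746.6, and the difference of -0.33 ± 0.15 did not pass (limma adjusted p = 0.354).

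Cacna1b, a neuronal pore gene, had the most negative calcium difference at day 42, -0.80 ± 0.49, with diabetic arrays at 218.9, 279.7, 236.1 and 395.3 and controls at 319.4, 402.7, 701.6 and 581 units. The ranges overlapped, and it did not pass (limma adjusted p = 0.374). Cacna1h, the other T-type gene, was below the filter, and its lowest difference was -1.25 ± 0.53 at day 28 (adjusted p = 0.434 without the filter). Cacna1d, an L-type pore gene of pacemaker and atrial cells, was below the filter as well, with differences of 0.15, -0.32 and 0.73, and its other probe sets were dimmer still.

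The change of the diabetic effect between days was tested as an interaction, and 0 of 37 channel genes passed in each of the 3 comparisons. Of all tested probe sets 0% passed between days 28 and 3, 0.973% between days 42 and 28, and 1.87% between days 42 and 3. Among the channel genes 3, 2 and 1 had an unadjusted p under 0.05 in these comparisons. For Scn1a the effect at day 42 exceeded that at day 3 by 1.12 on the log2 scale (limma adjusted p = 0.495), so the group difference at day 42 was not shown to differ from that at day 3.

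More channel genes passed between day 42 and day 3 than between diabetic and control rats, as did more of all tested probe sets. In controls 6 of 37 tested genes passed, 4 higher and 2 lower at day 42, and in diabetic rats 5 passed, 4 higher and 1 lower. Of all tested probe sets 17.9% passed in controls and 19.6% in diabetic rats. The median log2 difference of the channel genes was 0.34 in controls and 0.22 in diabetic rats, beside 0.01 and 0.02 over all tested probe sets. Higher at day 42 were 29 of 37 in controls and 28 in diabetic rats, whether or not they passed, and with quantile normalization 30 and 27. Of all 5244 tested probe sets, 2651 were higher in controls and 2691 in diabetic rats. The count of channel genes that passed in diabetic rats was 12 without diabetic day 3 replicate 1 and 3 without diabetic day 3 replicate 4. The day 42 arrays were handled apart, as given above, so time and handling cannot be told apart in these values. Diabetic rats weighed 144 to 157 g at day 3 and 112 to 126 g at day 42, while controls gained weight.

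**Figure D4:**
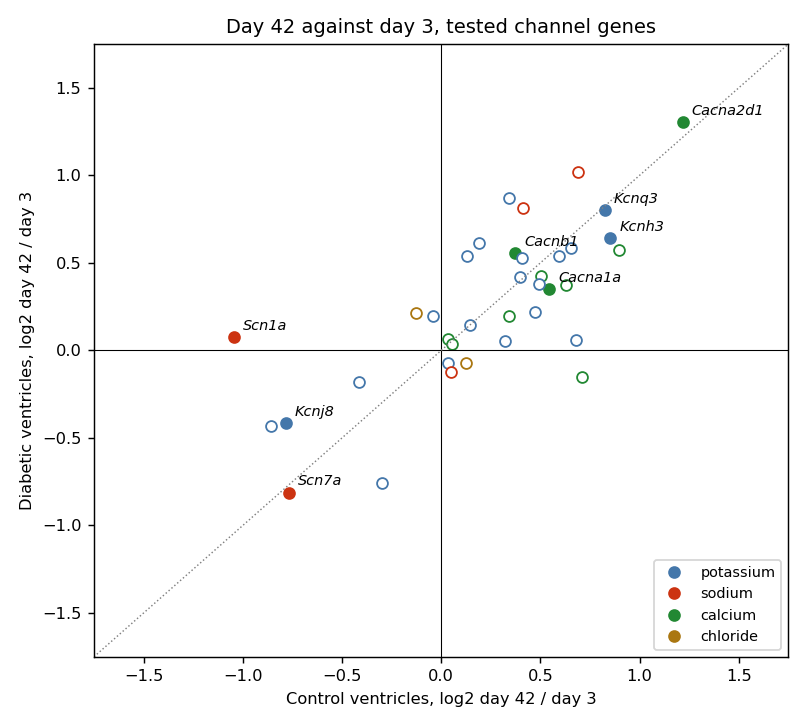
Log2 difference between day 42 and day 3 in control rats (horizontal axis) and diabetic rats (vertical axis) for the 37 tested channel genes. Filled and named points passed the threshold in at least 1 of both groups, points on the dotted line have equal differences in both, and Cacna2d1 lies highest in both.

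Of 10 tested calcium channel genes 2 passed and rose from day 3 to day 42 in controls, and 2 did in diabetic rats, beside 17.9% and 19.6% of all tested probe sets that passed in either direction. The differences of all 10 were above 0 in controls and those of 9 in diabetic rats, as also with quantile normalization and median centring. Their medians were 0.52 in controls and 0.36 in diabetic rats, beside 0.01 and 0.02 over all tested probe sets, and the class was not tested as a whole. The hexokinase ratio was higher at day 42 and the beta-actin ratio was not, as given above. The GAPDH ratio was also higher, at 1.14 to 1.23 in day 42 controls against 1.01 to 1.05 in day 3 controls. In diabetic rats it was 1.087 to 1.138 at day 42 against 0.992 to 1.086 at day 3. The part of RNA integrity in the calcium channel values was not tested. Cacna2d1, whose product is the alpha2delta subunit that brings L-type and other channels to the membrane, rose most of the 10 tested. Its controls read 916.6, 1255.8, 1194.8 and 1230.7 units at day 3, 1241.9, 718.6, 970.1 and 753 at day 28, and 2617.7, 2626.2, 2510.5 and 2869 at day 42. Day 42 was far above both earlier days, which overlapped each other.

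Diabetic arrays of Cacna2d1 followed the same course. They read 815.1, 931.2, 1032.1 and 1360.4 at day 3, 928.6, 1379.2, 897.8 and 816 at day 28, and 2329.1, 2527.4, 2035 and 3285.7 at day 42. The rise from day 3 to day 42 was 1.22 ± 0.20 in controls (limma adjusted p = 0.000132) and 1.30 ± 0.20 in diabetic rats (adjusted p = 6.49e-05). It passed under all 12 alternative settings and all 8 fits without 1 array in both groups. Blocks for scan day and chip lot give no value here and are not among the 12, so these settings do not separate time from handling. Between diabetic and control rats Cacna2d1 differed by -0.17, 0.13 and -0.08 at days 3, 28 and 42.

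The promoter of Cacna2d1 is printed as that of the tested channel gene with the highest rise from day 3 to day 42. Some genes below the filter had larger differences. RefSeq places the 250 bases before its start at chr4:20330148-20330397 of GRCr8 on the minus strand, given here in the direction of transcription, with 77.2% G and C and 32 CpG pairs. Capitals mark 7 GC boxes on the opposite strand, some of which overlap and run together, between 188 and 31 bases before the start.
Cacna2d1: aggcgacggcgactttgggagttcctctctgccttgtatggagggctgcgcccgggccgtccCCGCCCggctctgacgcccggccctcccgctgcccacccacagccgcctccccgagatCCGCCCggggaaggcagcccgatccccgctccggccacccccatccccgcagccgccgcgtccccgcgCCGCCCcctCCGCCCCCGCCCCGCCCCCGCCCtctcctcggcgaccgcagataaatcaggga
The median G and C content was 51.2% over all promoters of this length and 59.6% over those of the 68 channel genes.

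The other calcium genes that passed did so in 1 group each. Cacna1a, the pore gene of the P/Q-type channel of neurons, read here by a probe set that matches several sequences, rose in controls by 0.54 ± 0.15 (limma adjusted p = 0.0131). Its signals were 1069.8, 1102.5, 1156.2 and 1234.5 at day 3 and 2150.8, 1730.6, 1635.7 and 1250 at day 42, all above day 3. Without control day 42 replicate 1, the highest array, the difference missed the threshold (adjusted p = 0.0628). Cacna1a differed by 0.35 ± 0.15 in diabetic rats (adjusted p = 0.0965), and its 3 dimmer probe sets gave 0.10, 0.91 and 0.27 in controls without passing. Cacnb1 rose in diabetic rats by 0.56 ± 0.15 (adjusted p = 0.0111), from 645.3, 639.9, 658.6 and 687.3 to 1074.4, 860.6, 890.2 and 1066.2, and differed by 0.37 in controls (adjusted p = 0.0825).

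The probe sets of Cacna1c disagreed with time. The brightest showed differences of 0.03 ± 0.16 in controls and 0.07 ± 0.16 in diabetic rats. Both dimmer ones fell in controls from day 3 to day 42, by 1.76 ± 0.47 and by 1.81 ± 0.43 on the log2 scale (limma adjusted p = 0.0127 and 0.00556). One read 601.7, 777, 516 and 420.5 at day 3 and 63.6, 205.6, 341.7 and 152 at day 42. Its values did not overlap between the days. The other lost the call without control day 42 replicate 4 (adjusted p = 0.0582). In diabetic rats their differences were -1.16 and 0.09 and did not pass.

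Potassium genes that rose with time were Kcnh3 and Kcnq3, both known mainly from neurons, and the probe set of Kcnq3 is one that matches several sequences. Kcnh3, a slow voltage-gated channel gene, read 1355.1, 1717.2, 1725.9 and 1552.2 in controls at day 3 and 2626, 2763.6, 2894.5 and 3155.6 at day 42. All day 42 controls were above day 3, and the day 28 controls, at 1796.8 to 1996.8, lay between them. The rise was 0.85 ± 0.18 in controls and 0.64 ± 0.18 in diabetic rats (limma adjusted p = 0.00188 and 0.0139). In diabetic rats it was lost without diabetic day 3 replicate 4 (adjusted p = 0.0609). A dimmer Kcnh3 probe set gave 0.33 and 0.21 and did not pass in either group.

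Kcnq3, a subunit gene of the M-current, rose by 0.82 ± 0.21 in controls and by 0.80 ± 0.21 in diabetic rats (limma adjusted p = 0.00863 and 0.00943). Its controls were 620.2, 505.2, 560.7 and 349.3 at day 3 and 909.5, 929.3, 873.5 and 815.1 at day 42, all above day 3. In diabetic rats the values were 684, 543.3, 391.5 and 472.3 at day 3 and 686.8, 865.9, 1020.8 and 1044.8 at day 42, with the nearest arrays at 684 and 686.8. Controls at day 28 already read 602 to 1132. Other potassium pore genes of the voltage-gated group did not pass in either comparison.

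**Figure D5:**
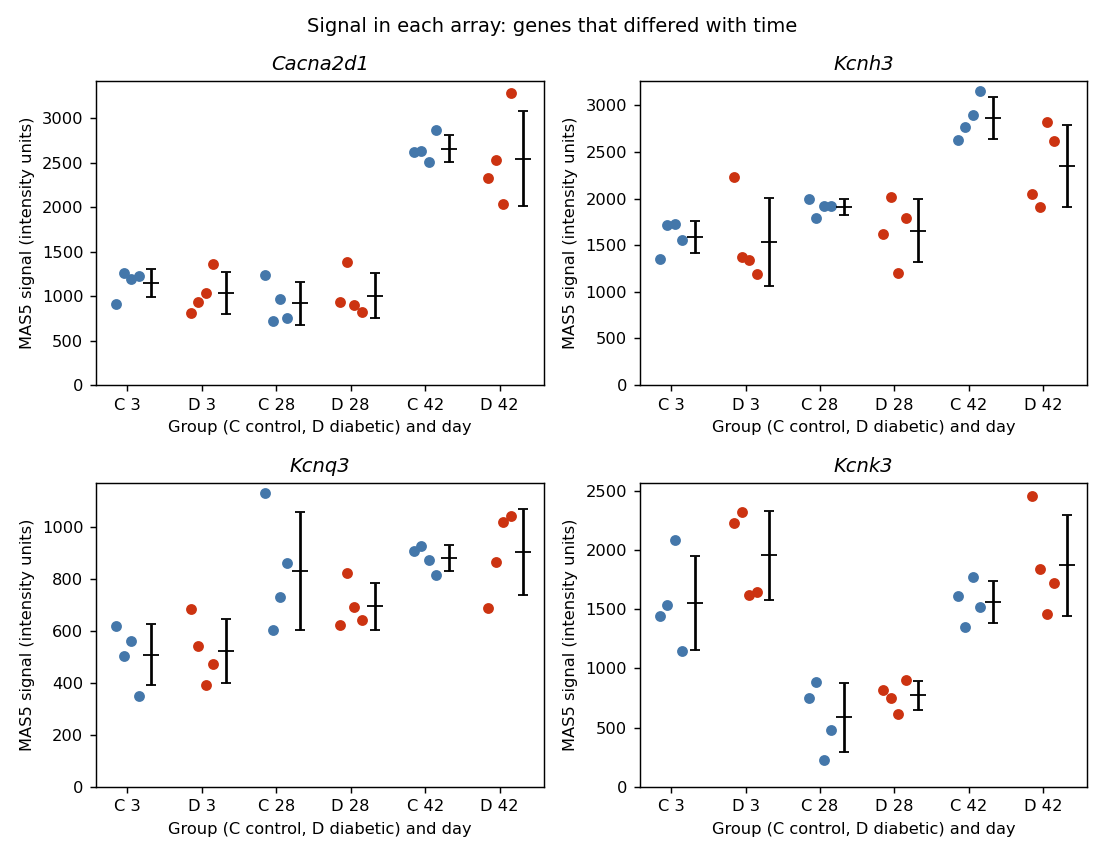
MAS5 signal of Cacna2d1, Kcnh3, Kcnq3 and Kcnk3 on each array (points, 4 per group), with the group mean and SD beside them, for control (C) and diabetic (D) rats at days 3, 28 and 42. Cacna2d1 is at 2035 units or more on every day 42 array and at most 1379.2 before, and Kcnk3 is at most 902.6 units on every day 28 array and at least 1142.7 on the others.

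Kcnj8 and Scn1a fell with time in controls. Kcnj8 read 1393.8, 1641.6, 967.1 and 1080.4 at day 3 and 722, 751, 616.4 and 813.1 at day 42. All day 42 controls were below day 3, and the log2 difference was -0.78 ± 0.23 (limma adjusted p = 0.0212). It lost the call in 3 of 8 fits without 1 array. In diabetic rats the difference was -0.42 ± 0.23 (adjusted p = 0.207). Of 3 endothelial markers 2 passed as lower over the same days in controls and 2 in diabetic rats, where Kdr differed by 0.19 (limma adjusted p = 0.690). Their summed signals were 4423 to 6996 units in day 3 controls and 2644 to 3211 in day 42 controls, and their part was not tested.

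Scn1a differed by -1.04 ± 0.37 between day 42 and day 3 in controls (limma adjusted p = 0.0495), just past the threshold, and by 0.07 ± 0.37 in diabetic rats (adjusted p = 0.905). The control call was lost in 5 of 11 alternative settings and in 6 of 8 fits without 1 array. These are the same day 42 controls as in the comparison with diabetic rats, so the 2 differences share those arrays.

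Scn7a fell with time in diabetic rats by 0.81 ± 0.28 on the log2 scale (limma adjusted p = 0.0420), and differed by -0.77 ± 0.28 in controls (adjusted p = 0.0558). Its diabetic arrays were 2179.9, 2155.7, 3334.6 and 2499.2 at day 3 and 1144.3, 1539.3, 1673.8 and 1397.1 at day 42, with no overlap. This call was lost in 4 of 12 alternative settings and in 6 of 8 fits without 1 array. A second Scn7a probe set fell in both groups, by 1.25 ± 0.27 in controls and by 1.16 ± 0.27 in diabetic rats (adjusted p = 0.00231 and 0.00394), and kept both calls in all 8 fits without 1 array. Of 6 listed Schwann cell and glia markers 3 were on the array and 1 was tested, Pmp22, with a difference of -0.46 in diabetic rats (adjusted p = 0.021), and their part was not tested.

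Among genes below the filter, Cacna1h was higher at day 42 in diabetic rats, at 192.1, 299.5, 280.7 and 171.8 units against 80.4, 21.3, 128.3 and 80.3 at day 3. The difference in the fit without the filter was 1.69 ± 0.53 (limma adjusted p = 0.0374), lost in 5 of 8 fits without 1 array, and 1 day 3 value was raised to the floor. In controls it was 1.13 ± 0.53 (adjusted p = 0.178). The dimmer probe set of Scn9a, a pore gene of sensory neurons, passed in the same comparison. Its diabetic arrays read 72.8, 59.4, 15 and 25.5 at day 3 and 121.4, 224.8, 269 and 171.2 at day 42, without overlap and with the lowest 2 raised to the floor. The difference was 2.07 ± 0.53 (adjusted p = 0.012), past the threshold in all 8 fits without 1 array, and 0.46 in controls (adjusted p = 0.647). The brighter Scn9a probe set differed by 1.39 in diabetic rats and 1.36 in controls and did not pass (adjusted p = 0.0791 and 0.0889).

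Proteins that anchor, regulate or sit beside these channels were followed in a list of 59 genes, of which 42 were on the array and 29 were tested. Between diabetic and control rats 0 passed at day 3, 0 at day 28 and 1 at day 42, Ywhah, an adaptor protein gene of the 14-3-3 family, with a difference of -0.47 ± 0.13 (limma adjusted p = 0.0182). Cav3, the muscle caveolin gene, had -0.41 there (adjusted p = 0.0894). Of all tested probe sets 11.4% passed at day 42. From day 3 to day 42, 3 passed as higher and 3 as lower in controls, and 0 as higher and 4 as lower in diabetic rats, beside 17.9% and 19.6% of all tested probe sets. Higher in controls were Dlg4, a scaffold, by 1.0, Ank3, an ankyrin that anchors sodium channels, by 0.65, and Stx1a, a syntaxin of vesicle fusion, by 0.64 on the log2 scale (adjusted p = 0.00467, 0.0158 and 0.00517). Dlg1, a scaffold of potassium and sodium channels, fell in both, by 1.16 ± 0.28 in controls and by 1.32 ± 0.28 in diabetic rats (adjusted p = 0.0069 and 0.0023). Ryr2, the calcium release channel of heart muscle, fell by 1.20 ± 0.33 and by 1.15 ± 0.33 (adjusted p = 0.0157 and 0.0183).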

How the data were processed

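Ventricular RNA of 24 rats was measured on 24 Affymetrix rat oligonucleotide arrays. The authors deposited 1 table of MAS5 signal intensity for 8799 probe sets, per the submitters' processing notes (version not given in the sources used here). No detection calls were used. Run-setting files gave the scan day, chip lot, operator and fluidics station.

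After 59 control probe sets were left out, 8740 remained, of which 7006 had 1 gene symbol, 308 several and 1426 none. The channel rule matched 131 probe sets of 83 genes, 5 of which it leaves out; 31 of the 78 remaining genes had several probe sets. Intensity was floored at 30.5, converted to log2 and filtered to 5244 probe sets. Group means were fitted with limma 3.58.1 in R 4.3.3 (trend and robust eBayes, 18 residual degrees of freedom). Genes below the filter come from a fit of all 8740.

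Tables and figures used Python 3.11.15, pandas 2.3.3, numpy 2.4.6, scipy 1.17.1 and matplotlib 3.10.9. The pipeline was tested on simulated data. Members and lists were chosen with earlier results of these data known. Named were all members past the threshold, the 4 highest means per ion, the 5 largest differences per day, tested members whose groups did not overlap, and a set of cardiac channel genes. Promoters are RefSeq entries of GRCr8, and 68 of 78 genes matched. Alternatives covered the floor, filter, normalization, variance model, arrays fitted, blocks and leaving out each array. Each array is a separate rat, and 4 per group limit the precision.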

Additional observations from a re-analysis of the deposited data

Results flagged for a closer look

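Within a group of 4 arrays, single log2 values were examined, floored as in the tests. A value was marked when its gap to the nearest other, over the group's range, exceeded the critical value of Dixon's test for 4 values. Chance marks about 1 in 20 groups, and 13 of 192 groups were marked.

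Highest in their group were Cacna1g at 950 units in diabetic day 28 replicate 1 (median of the others 614.4), Kcnh2 at 1851.9 in control day 28 replicate 1 (1436), and 5 genes in diabetic day 28 replicate 3 or control day 28 replicate 3. In diabetic day 28 replicate 3 these were Cacnb2 at 1049.9 (844), Kcnj3 at 304.8 (256.9), Kcnj5 at 724.4 (628.3) and Scn7a at 3964.7 (2558.3). In control day 28 replicate 3 it was Kcnj2 at 61.4 (9.8).

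Kcnj2 was also highest at 34.3 in control day 3 replicate 4 (14.6) and at 55.5 in diabetic day 3 replicate 1 (20.5), and in each of these 3 groups the other 3 arrays were at the floor. With 3 values set equal, the gap is the whole range, so these 3 marks follow from the floor. The chance rate given above does not apply to them.

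Lowest in their group were Cacna2d1 at 916.6 in control day 3 replicate 1 (1230.7), Clcn3 at 1828.5 in diabetic day 3 replicate 3 (3005.1), Kcns3 at 263 in the same array (427.3), and Kcnk5 at 298.1 in control day 42 replicate 4 (393.7).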

How the results depend on the processing

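The count of channel genes past the threshold between diabetic and control rats stayed at 0 at day 3, and at 0 for the 3 differences between days, under every alternative run. At day 28 it was 0 to 1 when 1 array was left out, with Scn3a passing without control day 28 replicate 2. At day 42 it was 1 to 2 when 1 array was left out, 1 with a filter at the 60th percentile, which removes Scn1a from the tests, and 3 with a fit of the compared groups alone, where Kcnj8 joined at an adjusted p of 0.0499. From day 3 to day 42 in diabetic rats the count of 5 ran from 3 to 12 when 1 array was left out, and the 12 came without diabetic day 3 replicate 1. It was also 12 without that array and control day 28 replicate 3 together, a setting chosen after seeing the data. In controls the count of 6 ran from 4 to 9 when 1 array was left out. Genes near the floor numbered 15 by the mean log2, 25 by mean signal under the 25th percentile and 7 by arrays at the floor.

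Same-numbered arrays did not pair: the correlation of their deviations ran from -0.19 to 0.40 over 12 pairs, with 2 above 0.1. With a replicate block the counts were 0, 0 and 2 at days 3, 28 and 42, and 8 and 5 from day 3 to day 42 in controls and diabetic rats. Blocks for scan day and chip lot give no value for day 42 against day 3. For 32 named genes, 1963 of 1992 values under alternative settings and 1244 of 1280 with 1 array left out kept their direction where called and their side of the threshold, and 0 called values changed sign. Low signal limits the 41 genes below the filter, and 4 arrays per group limit all.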
